A study of Sus scrofa with 48 samples.

Results

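The transcripts examined here are those of 10 genes that carry the insulin signal from the receptor at the cell surface to AKT and its first targets: *INSR*, *IRS1*, *IRS2*, *PIK3R1*, *AKT1*, *AKT2*, *GSK3A*, *GSK3B*, *FOXO1* and *TBC1D4*. Members were the non-control array probes whose gene name, or the gene of whose source sequence, was 1 of these symbols, and which the scanner software put well above background on 9 or more arrays in a diet-by-line group of 12. Of 19 such probes, 18 passed, out of 44356 probes that passed on the whole array, and they represented 9 of the 10 genes. *FOXO1* and *IRS1* had 4 kept probes each, *GSK3B* had 3, *TBC1D4* had 2, and *INSR*, *PIK3R1*, *AKT1*, *AKT2* and *GSK3A* had 1 each. No probe carried the name *IRS2*. The probe left out was a further *FOXO1* probe (O2940), which on the HF diet was well above background on 6 of 12 low RFI and 5 of 12 high RFI arrays, and on the LF diet on 7 and 8 of 12.

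Insulin binds a receptor tyrosine kinase, which phosphorylates the IRS adaptor proteins. These recruit phosphoinositide 3-kinase, whose lipid product brings the kinase AKT to the membrane, where it is activated. AKT then phosphorylates and inhibits the GSK3 kinases, which restrain glycogen synthase, keeps FOXO1 out of the nucleus, and inactivates TBC1D4, a Rab GTPase-activating protein that holds the glucose transporter GLUT4 inside the cell. In adipocytes this route drives glucose uptake and lipogenesis and restrains lipolysis. Most of its regulation is by phosphorylation, which an array of transcripts does not measure.

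Transcript levels came from subcutaneous adipose tissue (SCAT) of 48 Large White barrows, labelled as 132 days old, with 1 array per pig. The pigs belonged to 2 lines, bred in opposite directions over generations on residual feed intake (RFI), the feed eaten beyond that predicted from growth, so that low RFI pigs are the more efficient ones. Each line was fed freely on a diet rich in fat and fiber, with plant oils and wheat straw (HF), or on a low-fat, low-fiber diet rich in starch (LF), both formulated at the same energy and protein content, which gave 4 groups of 12 pigs. Fat, fiber and starch were changed together, so that their effects cannot be told apart, and each line stands for 1 selection experiment. The study reported that HF pigs ate less and were lighter and leaner than LF pigs. These differences go with diet here and cannot be told apart from its composition.

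On each array, between 62.2% and 81.9% of the non-control spots were well above background, and any 2 arrays correlated at r of at least 0.962 over the kept probes. Before centring, the array median was 8.44 ± 0.16 (log2 intensity, SD, n = 24) in HF pigs and 8.33 ± 0.19 in LF pigs. Markers of the fat cell were abundant on all arrays, with a summed level of 9 genes between 11.3 and 11.8 on the log2 scale. The label was thus borne out as to adipose tissue, while the depot was not tested. Diet passed the test for 12.6% of all 11173 genes. Among cell type markers, it passed for 1 of 9 adipocyte genes (*LEP*, leptin, lower in HF pigs with a log2 difference of -0.67 and adjusted p = 0.0051). It also passed for 1 of 8 stromal genes (*PDGFRA*, higher, 0.31 and adjusted p = 0.067). No call was made among 9 macrophage, 6 endothelial, 8 skeletal muscle and 5 blood genes. All 8 muscle genes were nonetheless on the lower side in HF pigs (median -0.21) and 7 of 8 stromal genes on the higher side (median 0.18), beside a median of -0.04 over all genes. The summed macrophage level ran from 4.62 to 6.73 in HF pigs and from 4.86 to 6.88 in LF pigs, that of muscle from 4.69 to 5.999 and from 4.77 to 6.25, and that of stroma from 10.1 to 10.9 and from 9.82 to 11.2. The part of these shifts in the results below was not tested. In a tissue sample, fewer cells of a type and less RNA per cell cannot be told apart.

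All levels below are log2 intensities after subtraction of the array's median kept probe, so that 0 is the level of a typical kept probe, and differences are HF minus LF or low RFI minus high RFI on that scale. A probe was called a differentially expressed probe (DEP) when its p was below 0.01 before and below 0.08 after Benjamini-Hochberg adjustment and its fold change exceeded 1.1, in 1 limma model of diet, line and their interaction over all 44356 probes.

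The probes are printed here because several genes gave different answers with different probes, and because the letters are all that ties a value to a transcript. For each, the first 30 of the 60 bases in the array files are given 5′ to 3′ in lower case, with no base singled out. For *IRS1*, the probe that passed the diet test comes first and the next brightest second, followed by the *GSK3A* probe and all 3 *GSK3B* probes, then the brightest *FOXO1* probe and the one that passed, and both *TBC1D4* probes.
IRS1, A_72_P371473: gaaactacacccaacctggaatttcttcct
IRS1, A_72_P537138: atggtcttaactacatagacctggatttgg
GSK3A, O12609: acagattcgagagatgaaccctaactacac
GSK3B, A_72_P611953: aatgggcgagacacacctgcactcttcaac
GSK3B, A_72_P096641: tcttgttggatcctgatacagctgtcttaa
GSK3B, A_72_P327618: agagatttaagaaccgagagctccaaatca
FOXO1, A_72_P441344: actttgacaatgtgttgcccaaccaaagct
FOXO1, A_72_P452642: gacctcatcaccaaggccatcgagagctcg
TBC1D4, O8430: tcccggaaaattcgacgagcagtggaaggt
TBC1D4, A_72_P287874: ctcagcctgctgagtaaccaagagacactc
No run of more than 9 bases was shared by any 2 of the 18 probes, so that no 2 of them read the same stretch. The 6 probes whose name starts with O carry accessions of human transcripts or proteins as their source, while the others carry those of pig transcripts or of expressed sequence tags. No transcript sequence was used here, and the place and strand of each probe on its transcript were not checked.

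Diet changed 7 of the 18 probes, in 5 genes, and no probe passed the test for line. Both GSK3 kinases had lower transcript levels in HF pigs: *GSK3A* by a log2 difference of -0.48 and *GSK3B* by -0.23 to -0.17 with all 3 of its probes. *IRS1*, the adaptor, and *TBC1D4*, the AKT substrate, were higher with 1 probe each (0.35 and 0.27), and *FOXO1* with 1 of 4 (0.26). The receptor, the regulatory subunit of phosphoinositide 3-kinase and *AKT1* did not pass the test, nor did the *AKT2* probe, whose strand is in doubt. Over the whole array 13.1% of the probes were called by diet, 5.61% higher and 7.44% lower in HF pigs. With the array scaled on its 75th percentile in place of its median, 5 member probes were called, 3 higher and 2 lower, and the share of higher probes among all DEP went from 43.0% to 67.2%.

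**Figure D1:**
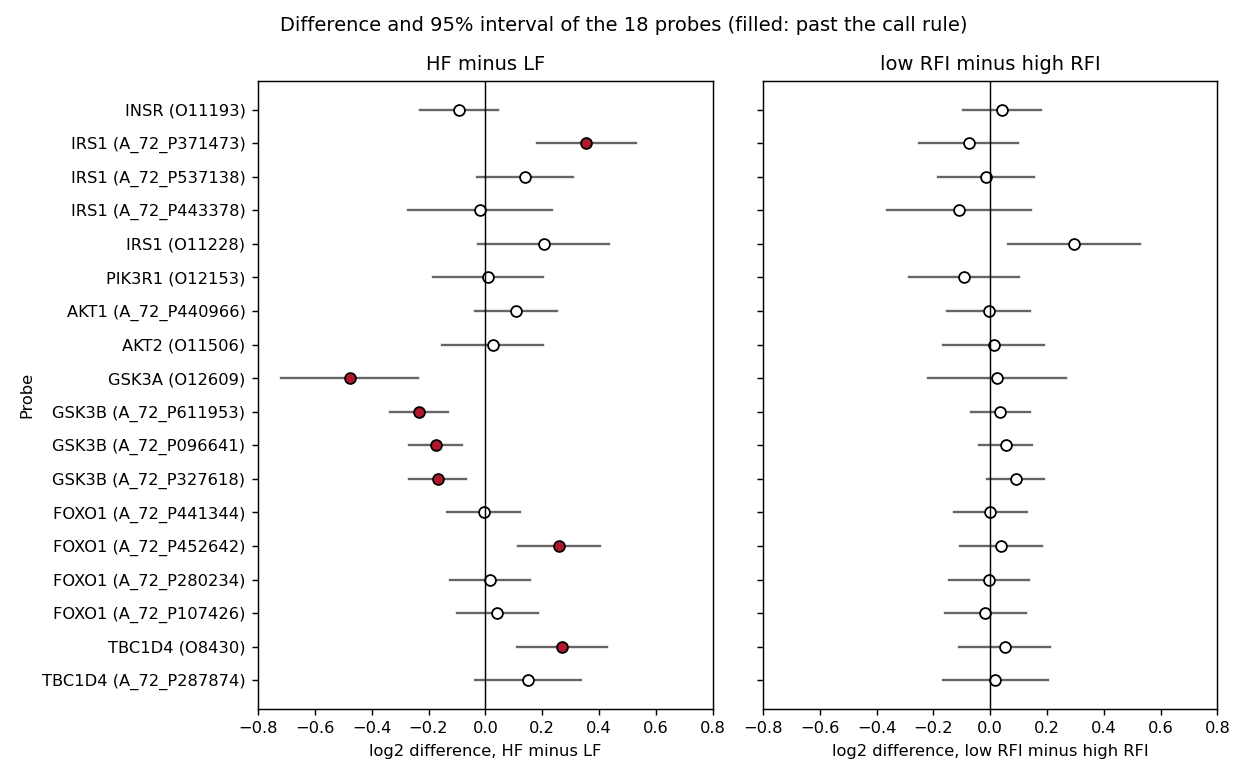
Log2 difference of each of the 18 probes between diets (left, HF minus LF) and between lines (right, low minus high RFI), as points with 95% intervals and filled where the call rule was met. In the left panel 7 points are filled, 4 below 0 (*GSK3A* and *GSK3B*) and 3 above (*IRS1*, *FOXO1*, *TBC1D4*), and in the right panel none is.

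The insulin receptor, the tyrosine kinase that starts the signal, was measured with 1 probe, well above background on all 48 arrays. In HF pigs its level was between -1.77 and -0.94 with a median of -1.29, and in LF pigs between -1.64 and -0.63 with a median of -1.20. The 2 ranges overlapped almost wholly, and the difference was -0.09 (95% interval -0.23 to 0.05, adjusted p = 0.42 by limma). Group means on the HF diet were -1.24 ± 0.18 (SD, n = 12) for the low RFI and -1.37 ± 0.23 for the high RFI line, and on the LF diet -1.24 ± 0.27 and -1.19 ± 0.24, so that all 4 means lay within 1 SD of each other.

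*IRS1* encodes the adaptor that the activated receptor phosphorylates. Its brightest probe (A_72_P371473), designed on a predicted pig *IRS1* transcript, ranged from 2.995 to 3.98 with a median of 3.41 in HF low RFI pigs and from 3.06 to 4.35 with a median of 3.49 in HF high RFI pigs. Levels were 2.61 to 3.58 (median 3.12) in LF low RFI pigs and 2.97 to 3.54 (median 3.19) in LF high RFI pigs. Of the 24 HF pigs, 9 were above every LF pig, and 6 LF pigs were below every HF pig. The transcript was up-regulated by the HF diet by 0.35 ± 0.09 (SE), a fold change of 1.28 (adjusted p = 0.0052). Within lines the difference was 0.42 for the low RFI line (adjusted p = 0.058, called) and 0.29 for the high RFI line (adjusted p = 0.27, not called), and the interaction did not pass the test.

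The other 3 *IRS1* probes were dimmer. A_72_P537138 was well above background on 47 of 48 arrays, A_72_P443378 on 41 and O11228 on 37, and their diet differences were 0.14, -0.02 and 0.20 with adjusted p = 0.30, 0.95 and 0.26. Their 95% intervals ran from -0.03 to 0.31, from -0.27 to 0.23 and from -0.03 to 0.44. The diet difference of A_72_P371473 was larger than that of A_72_P537138 by 0.21 ± 0.08 (SE; adjusted permutation p = 0.037 over 16 pairs of probes of the same gene) and larger than that of A_72_P443378 by 0.37 ± 0.13 (adjusted permutation p = 0.023). Against O11228 the gap was 0.15 ± 0.13 (adjusted permutation p = 0.38). Within groups, the 2 brightest probes followed each other over the 48 pigs (r = 0.61), more closely than the brightest followed A_72_P443378 (0.35) or O11228 (0.16). The higher level of *IRS1* in HF pigs therefore rests on 1 of 4 probes.

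No probe was named *IRS2*, the adaptor that shares the role of IRS1. A probe built on an expressed sequence cluster, described in the array files as similar to part of the mouse insulin receptor substrate 2, was outside the rule and was looked at separately. Its level was -1.37 ± 0.24 in HF and -1.33 ± 0.28 in LF pigs (SD, n = 24), and the diet difference of -0.03 (95% interval -0.19 to 0.12, adjusted p = 0.83 by limma) was within the spread.

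**Figure D2:**
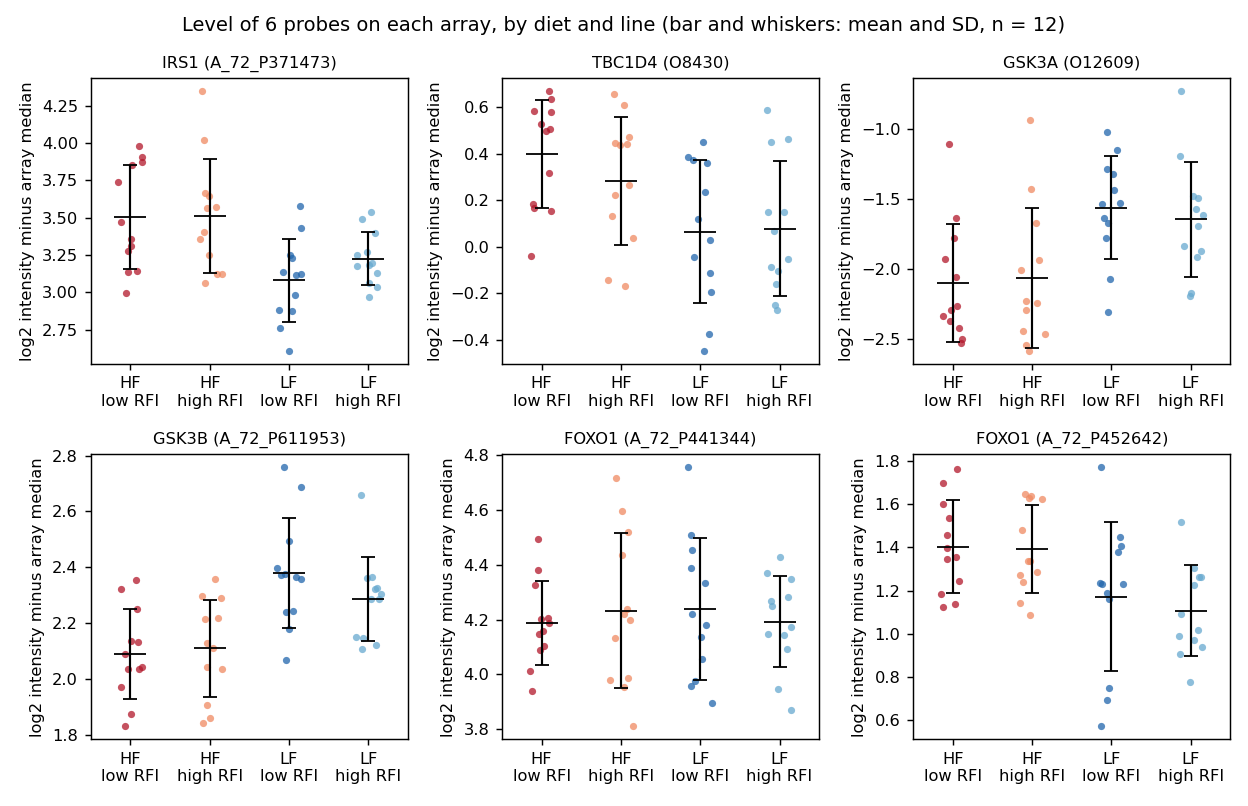
Level of 6 probes (log2 intensity minus the array median, y axis) on each array of the 4 groups, with points for single pigs and bars for the mean and SD of 12 pigs. *GSK3A* and *GSK3B* sit lower, and *IRS1*, *TBC1D4* and the *FOXO1* probe A_72_P452642 higher, in both HF groups than in both LF groups, while the *FOXO1* probe A_72_P441344 has 4 means between 4.19 and 4.24.

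*PIK3R1* encodes p85 alpha, the regulatory subunit that docks phosphoinositide 3-kinase on phosphorylated IRS proteins. HF pigs ranged from 2.62 to 4.07 with a median of 3.13 and LF pigs from 2.63 to 3.70 with a median of 3.27. The ranges started at nearly the same level, and the difference was 0.01 (95% interval -0.18 to 0.20, adjusted p = 0.97 by limma).

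The AKT kinases relay the signal, AKT2 being the form tied most closely to glucose uptake in fat and muscle. *AKT1* levels were between 1.26 and 2.28 (median 1.64) in HF pigs and between 1.06 and 2.11 (median 1.52) in LF pigs. The difference of 0.11 had a 95% interval from -0.04 to 0.25 (adjusted p = 0.36 by limma). *AKT2* levels were between -2.73 and -1.71 in HF pigs and between -2.88 and -1.71 in LF pigs, with medians of -2.22 in both. Its difference was 0.03 (95% interval -0.15 to 0.20, adjusted p = 0.89 by limma). Whether this probe reads the coding or the opposite strand of *AKT2* is in doubt, so that its values may not be levels of the *AKT2* transcript and set no limit on it. With the same reservation, the diet effect on *AKT1* exceeded that on the *AKT2* probe by 0.08 ± 0.13 (SE; permutation p = 0.52, adjusted 0.92 over 4 contrasts).

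*GSK3A* encodes the alpha form of glycogen synthase kinase 3. On its single probe, HF low RFI pigs ranged from -2.53 to -1.11 with a median of -2.28, and HF high RFI pigs from -2.58 to -0.93 with a median of -2.23. The LF low RFI pigs ranged from -2.31 to -1.02 (median -1.53) and the LF high RFI pigs from -2.19 to -0.73 (median -1.65). Here 9 HF pigs were below every LF pig, whereas the upper ends of the ranges nearly met. *GSK3A* was down-regulated by the HF diet by a log2 difference of -0.48 ± 0.12 (SE), a fold change of 1.39 (adjusted p = 0.0068 by limma). This size depended on the background: it was -0.31 with the normexp correction and -0.35 in the authors' deposited values, which have no background subtraction, and it was called in both. It was -0.54 within the low RFI line and -0.42 within the high RFI line, neither of which was called alone (adjusted p = 0.084 and 0.24).

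*GSK3B* encodes the beta form, and its 3 probes gave the same direction. With the brightest (A_72_P611953), levels on the HF diet were 1.83 to 2.35 (median 2.07) in low RFI and 1.84 to 2.36 (median 2.12) in high RFI pigs, and on the LF diet 2.07 to 2.76 (median 2.37) and 2.11 to 2.66 (median 2.29). As many as 11 HF pigs were below every LF pig, and 11 LF pigs were above every HF pig. The log2 difference was -0.23 ± 0.05 (SE; adjusted p = 0.0019), a fold change of 1.18. A_72_P096641 gave -0.17 (adjusted p = 0.01) and A_72_P327618 gave -0.17 (adjusted p = 0.022). None of the 3 differences between these probes passed the test (adjusted permutation p from 0.20 to 0.84), and within groups they correlated at r = 0.61 to 0.76. The calls of the 2 dimmer probes were lost with 75th percentile scaling, where both differences were -0.13 (adjusted p = 0.047 and 0.12), while that of A_72_P611953 was kept. Within low RFI pigs the brightest probe was called (-0.29, adjusted p = 0.027), and within high RFI pigs it was not (-0.18, adjusted p = 0.24).

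The fall of *GSK3A* was larger than that of *GSK3B* by 0.24 ± 0.12 (SE) with the brightest probes, but this gap did not pass the test (permutation p = 0.047, adjusted 0.19). As *GSK3A* minus *GSK3B* it was -0.09 with the normexp correction and -0.29 with quantile normalization (adjusted permutation p = 0.66 and 0.062). Over the 48 pigs, with the group means removed, the 2 transcripts were only weakly related (r = 0.25, rho = 0.28, adjusted permutation p = 0.32 and 0.27).

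*FOXO1* encodes a transcription factor that AKT excludes from the nucleus and that drives genes of fasting. Probe A_72_P452642 ranged on the HF diet from 1.12 to 1.76 (median 1.38) in low RFI and from 1.09 to 1.65 (median 1.34) in high RFI pigs, and on the LF diet from 0.57 to 1.77 (median 1.23) and from 0.78 to 1.52 (median 1.05). Here 9 LF pigs were below every HF pig, and the highest level of all was that of an LF pig. It was up-regulated by 0.26 ± 0.07 (SE; adjusted p = 0.013 by limma), a call lost when spots with an outlying local background were left out (0.24, adjusted p = 0.11). The other 3 kept probes did not pass the test, with -0.01 for the brightest (A_72_P441344; 95% interval -0.13 to 0.12), 0.02 for A_72_P280234 (-0.12 to 0.16) and 0.04 for A_72_P107426 (-0.10 to 0.18). Set against each of them on the same arrays, A_72_P452642 had the larger diet difference, by 0.27, 0.24 and 0.22 (adjusted permutation p = 0.0032, 0.0054 and 0.049). The *FOXO1* probes thus gave different answers, although all 4 were positively related from pig to pig within groups (r from 0.24 to 0.89). Which transcript forms each probe reads was not tested.

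*TBC1D4*, also known as AS160, encodes the Rab GTPase-activating protein that AKT switches off to release GLUT4 vesicles. Probe O8430 ranged on the HF diet from -0.04 to 0.67 (median 0.50) in low RFI and from -0.17 to 0.66 (median 0.35) in high RFI pigs, and on the LF diet from -0.45 to 0.45 (median 0.07) and from -0.27 to 0.59 (median 0.01). The ranges overlapped broadly, with 4 HF pigs above every LF pig and 5 LF pigs below every HF pig. The difference was 0.27 ± 0.08 (SE), a fold change of 1.21 (adjusted p = 0.021). The dimmer probe, A_72_P287874, pointed the same way without passing (0.15, 95% interval -0.04 to 0.34, adjusted p = 0.32). Both followed each other closely within groups (r = 0.85), and the gap of 0.12 ± 0.05 between their diet differences did not pass the test at 0.05 (adjusted permutation p = 0.051).

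The arrays had been scanned on 2 dates, with 24 arrays and all groups on each. All 7 probes called by diet had the pooled direction on both dates. The difference was -0.54 and -0.41 for *GSK3A*, -0.24 and -0.23 for *GSK3B* (A_72_P611953), 0.27 and 0.44 for *IRS1* (A_72_P371473), 0.22 and 0.30 for *FOXO1* (A_72_P452642) and 0.21 and 0.34 for *TBC1D4* (O8430) on the first and second date. With 24 arrays in a fit, *GSK3A* and A_72_P611953 were called on the first date and none on the second.

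No difference between lines was detected for these genes. Of the 18 probes, 0 were called by limma between low and high RFI pigs, 1 had a raw p under 0.05, and the call rule was met by 1.37% of probes on the array. The differences ran from -0.11 to 0.30. The largest was that of the dim *IRS1* probe O11228 (0.30, 95% interval 0.06 to 0.53, adjusted p = 0.27), and the brightest *IRS1* probe gave -0.08 (95% interval -0.25 to 0.10). For *GSK3B*, with the tightest intervals, line differences were 0.04, 0.05 and 0.09, and the upper bounds were 0.14, 0.15 and 0.19. No member was called by line within the HF diet (array background 0.0113%) or within the LF diet (0.0338%), with 1 and 0 raw p under 0.05.

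The interaction of diet and line was called for 0 of the 18 probes and for 0% of the probes on the array. Only *IRS1* A_72_P537138 had a raw p under 0.05, with a diet difference larger by 0.42 in low RFI pigs (0.35 against -0.07; adjusted p = 1.0 by limma). Within low RFI pigs 2 member probes were called by diet (array background 3.04%), namely *GSK3B* A_72_P611953 and *IRS1* A_72_P371473, and within high RFI pigs 0 were (array background 1.66%), with 8 and 6 raw p under 0.05. These counts depended on the fit: with slide, scan date or replicate number as a block 4 probes were called in low RFI pigs, with array weights 7, and with array position as a block 0, which lost both named calls, while in high RFI pigs 1 was called with the replicate block and with array weights. With no filter on dim probes the *IRS1* call was lost. The diet effect was not shown to differ between lines, since the interaction did not pass.

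Levels of the brightest probe of each gene were then related to each other from pig to pig, after removing group means, in 36 pairs. After adjustment 2 pairs passed. *IRS1* and *TBC1D4* were positively related (Pearson r = 0.57, permutation p = 3.0e-05, Spearman rho = 0.58, adjusted p = 0.0011 for both, n = 48). Leaving out the 2 arrays farthest from the *IRS1* median gave r = 0.52, removing slide means gave 0.56, and r was 0.51 and 0.60 on the first and second scan date. *PIK3R1* and *AKT1* were also related (r = 0.47, rho = 0.49, adjusted permutation p = 0.015 and 0.0081), with r = 0.44 without the 2 farthest arrays, 0.51 with slide means removed and 0.42 and 0.62 by date. *INSR* and *TBC1D4* came next (r = 0.39, adjusted permutation p = 0.11). *IRS1* and *FOXO1* were inversely related without passing (r = -0.35, adjusted permutation p = 0.15), and the value was -0.05 on the first date and -0.61 on the second.

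**Figure D3:**
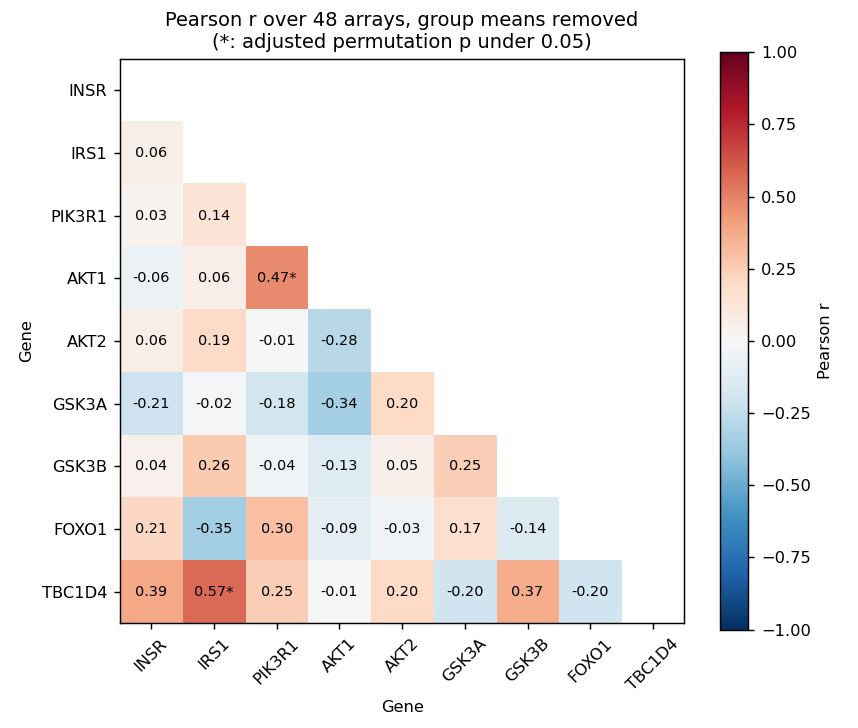
Pearson r between the brightest probes of the 9 genes over 48 arrays with the group means removed, coloured from -1 to 1, with an asterisk where the adjusted permutation p is under 0.05. The 2 marked pairs are *IRS1* with *TBC1D4* (0.57) and *PIK3R1* with *AKT1* (0.47), and the other 34 values run from -0.35 to 0.39.

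For the genes called by diet at their brightest probe, the symbols with the most similar pattern were sought among 11173 genes, over 48 pigs with group means removed, as a description. *IRS1* was nearest to *PTGFR* (r = 0.65), *RGMA* (0.62) and *MPND* (0.61), and *TBC1D4* to *PTGFR* (0.68), *AKAP11* (0.67) and *CYSLTR1* (0.66), so that both shared their nearest gene, a prostaglandin receptor. *GSK3B* was nearest to *TMEM189* (0.72), *SEPW1* (0.72) and *UBN1* (0.70). *GSK3A* was nearest to *MALAT1* (0.85), a nuclear non-coding RNA, *UPK1A* (0.85) and *ANKRD42* (0.76), all 3 of which were also lower in HF pigs, with diet differences of -0.27, -0.71 and -1.02 (adjusted p = 0.05, 0.0034 and 0.0035 by limma). Among the other neighbours, *TMEM189* and *SEPW1* were also called lower (-0.24 and -0.26, adjusted p = 0.025 and 0.00044) and *RGMA* higher (0.22, adjusted p = 0.05), while *UBN1*, *PTGFR*, *MPND*, *AKAP11* and *CYSLTR1* were not called by diet. All these values share arrays, slides and centring.

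The 7 lists of other pathway genes set these members among their neighbours, with each gene represented by its brightest kept probe. Of 103 listed genes 82 were tested, and diet passed for 16 of them, 3 higher and 13 lower in HF pigs, where 12.6% of all 11173 genes were called (3.3% higher and 9.32% lower). The median log2 difference of the lists was -0.06, beside -0.04 for all genes. With 75th percentile scaling 12 were called, 3 higher and 9 lower. Line passed for 2 of the 82 (1.22% of all genes).

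Around the receptor, adaptors gave 1 lower gene of 11, *CRKL* (-0.24, adjusted p = 0.016), which links phosphorylated adaptors to exchange factors. *IGF1R*, the receptor closest to INSR, had 3 kept probes, none of them called, with diet differences of 0.06, -0.05 and -0.04 (adjusted p = 0.75, 0.78 and 0.81). The study, by contrast, lists *IGF1R* among the genes higher in HF pigs in both of its adipose tissues. The probe behind that listing was not identified here, where 33518 of 60305 probes had no symbol. Among 6 further phosphoinositide 3-kinase and PDK1 genes none was called by diet, and *PDPK1*, the kinase that phosphorylates AKT, differed by -0.09 (adjusted p = 0.20). *PIK3C3*, the class III kinase of autophagy, was lower in low RFI pigs (-0.21, adjusted p = 0.043), a call lost in 2 of 13 other settings (highest adjusted p = 0.156).

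The phosphatases and other brakes of the pathway gave 3 called genes of 13. *PPP2CA*, the catalytic subunit of a phosphatase that removes phosphate from AKT, was lower (-0.22, adjusted p = 0.00088), as was *PTPN1*, the phosphatase of the insulin receptor (-0.19, adjusted p = 0.065). *PHLPP1*, another AKT phosphatase, was higher (0.21, adjusted p = 0.063). The call of *PTPN1* was lost in 8 of 13 other settings (smallest difference -0.12), and that of *PHLPP1* in the deposited table and with the array position as a block.

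Of the mTOR branch, which controls protein synthesis, 2 of 13 genes were lower: *EIF4E*, the cap-binding factor (-0.24, adjusted p = 0.017), and *RPS6KB1*, the S6 kinase (-0.17, adjusted p = 0.058). The call of *RPS6KB1* was lost with 75th percentile scaling, with quantile normalization, with outlying backgrounds left out and with array position as a block. In the mitogen-activated kinase arm, all 9 differences were below 0, with a median of -0.11.

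AKT effectors and GLUT4 traffic held the most called genes, 6 of 15, 5 lower and 1 higher. *ACLY*, which makes cytosolic acetyl-CoA for fatty acid synthesis, fell by 0.56 on the log2 scale (1.48-fold, adjusted p = 0.027), from 8.62 ± 0.50 in LF to 8.06 ± 0.70 in HF pigs (SD, n = 24). *RHOQ*, the small GTPase TC10 of GLUT4 traffic, fell by 0.46 (adjusted p = 5.4e-05), and *LNPEP*, the aminopeptidase IRAP carried in GLUT4 vesicles, by 0.26 (adjusted p = 0.0032). *BAD* and *MDM2*, AKT substrates of cell survival, were lower by -0.19 and -0.17 (adjusted p = 0.013 and 0.034). The call of *ACLY* was lost with array position as a block, that of *BAD* with quantile normalization, and that of *MDM2* with normexp, 75th percentile scaling and the deposited table. *TBC1D1*, the close relative of TBC1D4, was higher by 0.19 (adjusted p = 0.025), the same direction as its paralogue. *SLC2A4*, the GLUT4 transporter itself, was at 5.44 in HF and 5.80 in LF pigs, a difference that did not pass (-0.36, adjusted p = 0.17), and *GYS1*, the glycogen synthase that GSK3 inhibits, gave -0.15 (adjusted p = 0.11).

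Of 15 targets of FOXO1, 3 were called, in both directions. *PDK4*, the kinase that shuts pyruvate dehydrogenase, was higher in HF pigs (0.63, adjusted p = 0.069), a call lost in 6 of 13 other settings. *GADD45A*, a stress-response gene, and *SOD2*, mitochondrial superoxide dismutase, were lower (-0.52 and -0.26, adjusted p = 0.0069 and 0.019), and *SOD2* was also higher in low RFI pigs (0.32, adjusted p = 0.023). *PCK1*, the classical FOXO1 target of gluconeogenesis and glyceroneogenesis, gave 0.63 with adjusted p = 0.27, and *TXNIP* gave 0.01.

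**Figure D4:**
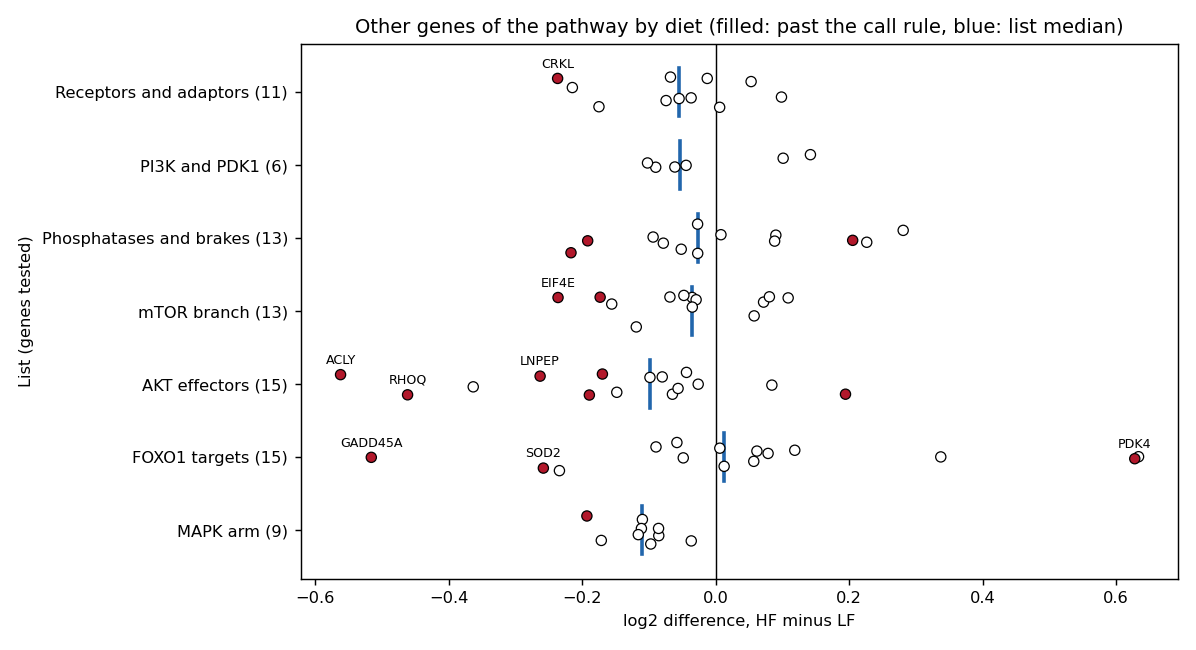
Log2 difference between diets (HF minus LF, x axis) of the 82 tested genes in 7 lists of the pathway, as 1 point per gene, filled where called, with a blue bar at the list median. Most filled points lie below 0, with *ACLY*, *GADD45A* and *RHOQ* farthest to the left, and *PDK4* is the filled point farthest to the right.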

How the data were processed

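Each RNA sample had been labelled by the authors with 1 dye and hybridised to a custom porcine array, 8 arrays to a slide, and its image was quantified with Agilent Feature Extraction 10.7.3.1. Scanner files as deposited give spot intensity on a linear scale, and the processed signal used here is already background-subtracted. The deposited log2 table of 38987 probes, made by the authors with R 2.10.0, is the median spot intensity minus the array median with no background subtraction (48 of 48 columns matched within 1e-06), and served as an alternative.

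Probes were named by the array files and by RefSeq's gene table (assembly Sscrofa11.1), which gave 26787 of 60305 probes a symbol, and 33518 had none. Flagged spots (156 kept values, none on a member) were set to missing. Processed signals were taken to log2 and centred on each array's median over the 44356 kept probes. The study centred on the array median too, but from signals without background subtraction and over its own probe set. No spot was saturated, and the number of arrays limits the precision. Diet, line and interaction were fitted over all 48 arrays with limma 3.58.1 in R 4.3.3 (lmFit, eBayes with an intensity trend), two-sided. In simulated data with noise drawn independently for each probe, 50 probes each were changed by diet by 0.25 and 0.5 on the log2 scale, among 44356. Of these, 34% and 78% were recovered. Far fewer probes were changed there than were called by diet here (13.1%), so that these shares are not the power of the tests above. Gene-level fits used the brightest kept probe of 11173 symbols.

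Per-array differences between genes or probes were compared by two-sided permutation of diet within line, or line within diet, and correlations by permutation within groups, with 100000 resamples (Python 3.11.15) and Benjamini-Hochberg adjustment. A permutation test passed at an adjusted p under 0.05. The contrast of *IRS1* with *IRS2* could not be run, which left 4 of 6. The members and lists were chosen with earlier results of these data known. Named were all kept member probes, list genes called by diet or line (up to 20), and the 3 symbols nearest to each called member. The comparison of probes within a gene, the *IRS2*-like probe, and *IGF1R*, *PDPK1*, *SLC2A4*, *GYS1*, *PCK1*, *TXNIP*, *LEP* and *PDGFRA* were added after values were seen. Not every list gene that meets the rule is reported here. Nothing says that pigs shared a litter or pen, and the p-values take them as independent.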

Additional observations from a re-analysis of the deposited data

How the results depend on the processing

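The 13 other settings were 2 other scalings, another background correction, the authors' deposited table, no filter, outlying backgrounds left out, 4 blocks, array weights, the methods' analysis of variance and 1 probe per symbol. Of 7 probes called by diet, *GSK3A*, *IRS1* A_72_P371473, *GSK3B* A_72_P611953 and *TBC1D4* O8430 were called in all of them, and the others lost their call only where the report says so. With 1 probe per symbol 4 of 9 genes were called by diet. By diet within low RFI, 2 were called in the report, 4 with 75th percentile scaling, with slide, scan date or replicate number as a block, 7 with array weights, 1 with no filter and 0 with array position as a block. Within high RFI, 1 was called with the replicate block and with array weights. Pathway genes called by line were 1 with no filter or the array position block, where *PIK3C3* was lost and *SOD2* kept, and 5 with array weights. The causes were not tested.

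Replicate numbers marked arrays of the same slide, 1 per group, and same-numbered arrays correlated over 0.1 in 6 to 9 of 12 cases per pair of groups. Their mean r was 0.118 to 0.233, against 0.0518 to 0.111 for other numbers of the slide, a partial resemblance. Since not every case exceeded 0.1, pairing is not assumed. With replicate number as a block, 7 member probes were called by diet and 0 by line, and *GSK3A* minus *GSK3B* by diet was -0.24 (adjusted permutation p = 0.053). With quantile normalization this contrast was -0.29 (adjusted permutation p = 0.062). No paired contrast had an adjusted permutation p under 0.05 in any setting.

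Differences near 0 changed sign, none of them called. By diet, *IRS1* A_72_P443378 was 0.021 with 75th percentile scaling, 0.036 in the deposited table and 0.031 with the position block. *PIK3R1* was -0.0047 with array weights. *FOXO1* A_72_P441344 was 0.0087 with normexp, 0.035 with 75th percentile scaling and 0.052 with quantile normalization. By line, *IRS1* A_72_P537138 was 0.0089 with normexp and 0.013 with the position block, *AKT1* 0.019 with that block, and *AKT2* -0.0027 with quantile normalization. *FOXO1* A_72_P441344 was -0.0027 with normexp, -0.00998 with 75th percentile scaling, -0.014 with quantile normalization, -0.0055 with no filter, -0.00077 with outlying backgrounds left out and -0.011 with the position block. *FOXO1* A_72_P280234 was 0.00898 in the deposited table, and *TBC1D4* A_72_P287874 was -0.0041 with outlying backgrounds left out and -0.0074 with array weights. The IRS1 probe O11228 and A_72_P287874 are not in the deposited table used here. The *IRS1* probes A_72_P443378 and O11228, well above background on 41 and 37 of 48 arrays, had the widest 95% intervals of the 4.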
